A study of Homo sapiens with 8 samples.

Results

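The genes described here are 10 members of the transforming growth factor beta (TGF-beta) pathway: the ligand genes TGFB1, TGFB2 and INHBA, the receptor genes TGFBR1, TGFBR2 and TGFBR3, the SMAD genes SMAD2, SMAD3 and SMAD7, and the induced matrix gene TGFBI. They were picked by name among the 43317 gene names of the array's non-control probes, by a rule that holds no measured value but was written with earlier results of these data known. All 10 were found, with 13 probes between them, and all 10 were among the 21283 genes that passed the filter on detection. SAS, an established line from a human squamous carcinoma of the tongue, was transfected with a synthetic mimic of miR-629-3p, of miR-210-3p or of miR-874-3p, or with a negative control oligonucleotide (NC), and total RNA from 2 samples of each group was hybridised to 1-colour arrays, 8 arrays in all. The study asked whether these microRNAs take part in the resistance of oral cancer cells to cisplatin, and none of the array samples was labelled as drug treated.

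The methods of the study give 25 nM of mimic or control and name the recipient cells SAS/GFP, a derivative that carries a green fluorescent protein vector, whereas the labels write SAS. Puromycin is listed in the labels' growth medium for every group. RNA was taken 48 h after transfection according to the labels and earlier according to the methods. The labels do not say whether the 2 samples of a group came from separate cultures, so the p-values measure the spread between these samples, which may be technical. The methods also name different suppliers for the mimics and for the control, so that in every comparison with NC the source of the oligonucleotide and its sequence cannot be told apart. A mimic reports on a microRNA supplied in excess by transfection, in 1 cell line.

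TGF-beta ligands are secreted in a latent form and, once released, bring together a type II and a type I receptor kinase. The activated type I receptor phosphorylates SMAD2 and SMAD3, which enter the nucleus with SMAD4 and change transcription, and SMAD7 is an induced inhibitor that closes the loop at the receptor. In squamous epithelium the pathway restrains proliferation, and in carcinomas it is known for its part in invasion and in epithelial to mesenchymal transition.

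Every level below is a log2 signal after subtraction of the 75th percentile of its array, so that 0 is the brightness of that percentile, and a difference of 1 is a 2-fold change. Levels of different genes come from different probes and were not set against each other. Between 41.98% and 49.83% of the 58201 probes of an array were well above background. All 8 arrays lay on 1 slide and were read in 1 scan, with miR-629-3p and miR-210-3p in the first row of the slide and miR-874-3p and NC in the second. The row and the group can therefore be separated only for miR-629-3p against miR-210-3p and for miR-874-3p against NC. In the other comparisons they cannot be told apart. Within a row, miR-629-3p and miR-874-3p lay in columns 1 and 2, and miR-210-3p and NC in columns 3 and 4. In those 2 comparisons within a row, the column and the group therefore cannot be told apart. Between 24338 and 26963 probes were above background on the arrays of the second row and between 27080 and 28994 on those of the first. Of the markers checked, all 6 squamous epithelial genes (KRT5, KRT14, KRT17, TP63, CDH1 and SFN) were above background on all 8 arrays, as were 1 of 5 fibroblast and 2 of 4 endothelial markers and the leukocyte genes PTPRC and CD14. COL1A2, PDGFRA and LUM, which mark fibroblasts, were above background on no array. In bulk RNA, fewer cells of a type and less RNA per cell cannot be told apart.

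The transfected microRNAs are shown because the 3 mimic groups are defined by them. These are the mature sequences of RefSeq (build GRCh38.p14), written 5′ to 3′, with the seed (bases 2 to 8) in capitals.
miR-629-3p: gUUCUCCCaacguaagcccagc
miR-210-3p: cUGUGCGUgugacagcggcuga
miR-874-3p: cUGCCCUGgcccgagggaccga
The 3 seeds differ, so that the microRNAs form 3 seed groups of 1. Their genes lie on the minus strand, at chr15:70079387-70079408, chr11:568112-568133 and chr5:137647582-137647603 respectively.

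The member probes were searched on their sense strand for the complement of each seed. The complements of bases 2 to 8, GGGAGAA for miR-629-3p, ACGCACA for miR-210-3p and CAGGGCA for miR-874-3p, were in none of the 13 member probes, and in 0.747%, 0.131% and 0.387% of all 58201 probes. The shorter GGAGAA, which pairs with bases 2 to 7 of miR-629-3p and lies within GGGAGAA, was in 1 member probe, that of TGFB1, and in 3.6% of all probes. The complements of bases 2 to 7 of miR-210-3p and of miR-874-3p were in 0 member probes, and in 0.335% and 1.46% of all probes. A probe covers a small stretch of a transcript, so an absent match concerns that stretch alone. Probe coordinates are those of the array annotation (build hg19). The TGFB1 probe (chr19:41838142-41847802, minus strand) covers 60 bases that are spread over 9661 bases of the genome, and therefore crosses an exon junction. It lies in the coding sequence of the mature ligand, and the capitals in it mark GGAGAA.
TGFB1 probe: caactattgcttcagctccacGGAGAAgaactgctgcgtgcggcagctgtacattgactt
The INHBA probe (chr7:41729246-41729305, minus strand) covers the end of the coding sequence. It is printed up to the stop codon, which is in capitals.
INHBA probe: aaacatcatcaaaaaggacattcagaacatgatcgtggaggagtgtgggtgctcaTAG

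Among the members, the receptor genes TGFBR1 and TGFBR2 and the matrix gene TGFBI had the smallest adjusted p-values. TGFBR2 rose and TGFBI fell with miR-629-3p, TGFBR1 rose with miR-210-3p, and no member was called with miR-874-3p. With limma fitted over all 8 arrays, 4 of 10 members differed among the 4 groups at an adjusted p under 0.05 by the F test, beside 25.2% of all genes tested. These were TGFBR1 (adjusted p = 0.0120), TGFBI (0.0162), TGFBR2 (0.0239) and SMAD3 (0.0404).

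Against NC, miR-629-3p changed 3 of 10 members, beside 16.8% of all genes. Of these, 2 were higher (TGFB2 and TGFBR2), beside 9.28% of all genes, and 1 was lower (TGFBI), beside 7.47%. The median member difference was -0.18 and that of all genes 0.02. miR-210-3p changed 1 member, TGFBR1, which was higher, beside 6.05% of all genes called, 3.85% called higher and 2.2% called lower. miR-874-3p changed 0 of 10 members by limma, beside 0.423% of all genes, of which 0.216% were called higher and 0.207% lower. At an unadjusted p under 0.05 limma counted 3 members for miR-874-3p, beside 16.4% of all genes, and the methods' t-test counted 0, beside 9%. The 3 comparisons share the 2 NC arrays.

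The study counted genes at an unadjusted p under 0.05 with at least a 2-fold change, and its methods name Student's t-test. With the p of limma in its place, 1 member passed with miR-210-3p (TGFBR1, beside 3.14% of all genes) and 0 with miR-874-3p (beside 2.02%). By the methods' t-test with the same 2-fold cut, the shares of all genes were 3.9% for miR-629-3p, 1.94% for miR-210-3p and 0.714% for miR-874-3p. With miR-629-3p the fitted value of TGFBR3 passed (beside 5.26%), but TGFBR3 was above background on no NC array, so that its difference has only a bound, at least 1.02-fold, and a 2-fold change was not measured. TGFB2, TGFBR2 and TGFBI, called with miR-629-3p by adjusted p, differed by less than 2-fold.

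**Figure D1:**
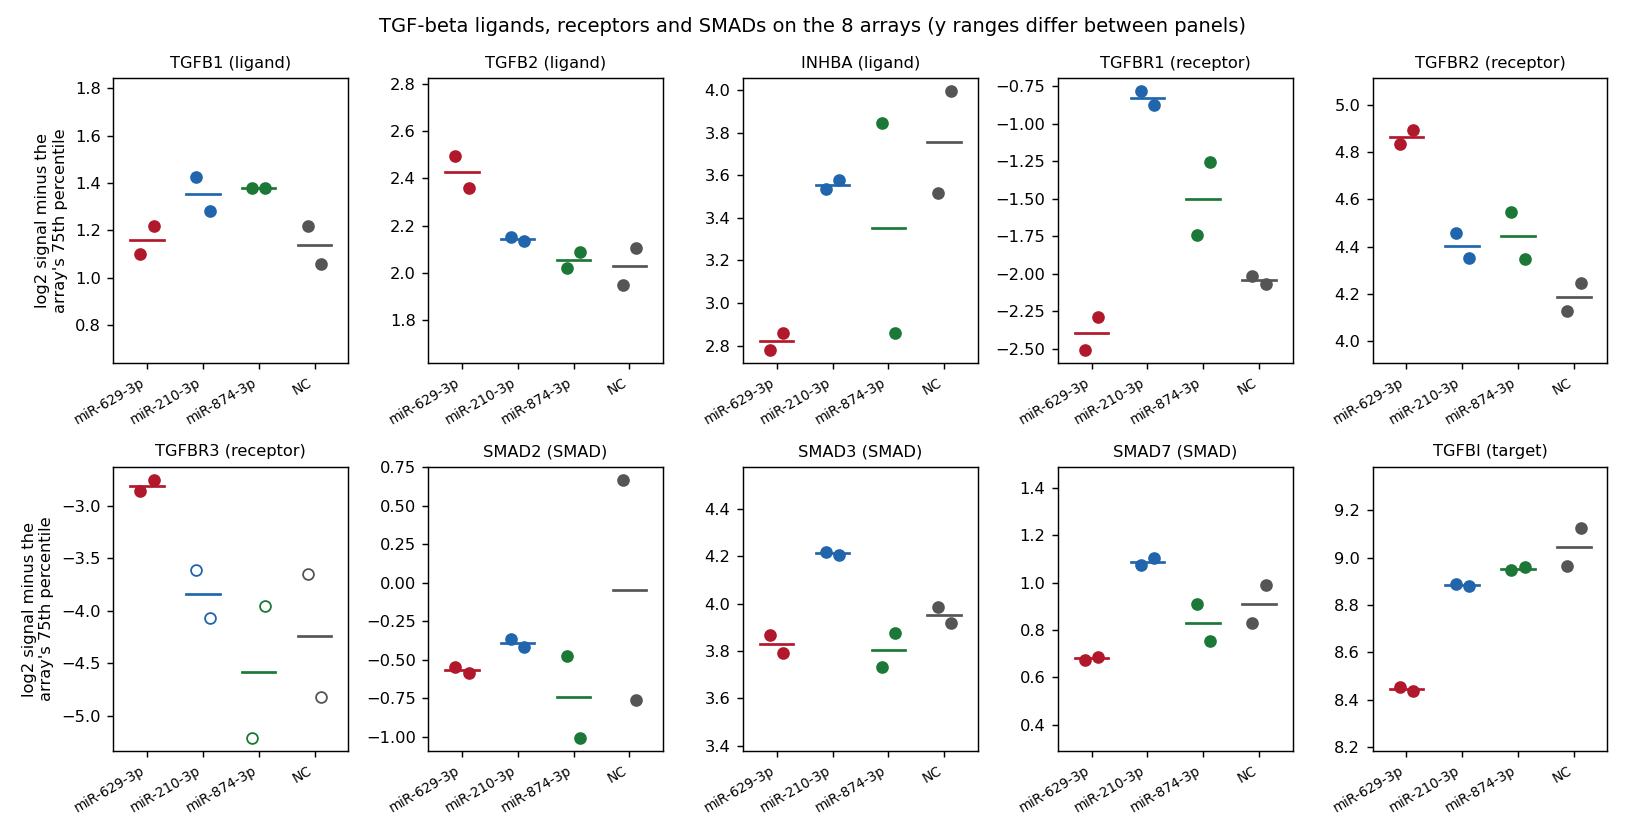
Level of each member on each of the 8 arrays, as log2 signal minus the array's 75th percentile (y axis, with its own range in each panel), by group (x axis). Each point is 1 array, open points were not well above background, and lines are group means. TGFBR1 was highest on the 2 miR-210-3p arrays, TGFBR2 on the 2 miR-629-3p arrays and TGFBI lowest on the 2 miR-629-3p arrays, while the INHBA and SMAD2 levels of single groups were spread widely.

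Among the ligands, TGFB2, which encodes an isoform active in development and in carcinoma invasion, rose with miR-629-3p. Its level was 2.49 and 2.36 under miR-629-3p, 2.15 and 2.13 under miR-210-3p, 2.02 and 2.09 under miR-874-3p, and 1.95 and 2.11 under NC. Both miR-629-3p arrays lay above the other 6. The difference from NC was 0.40 (SE 0.09, 95% interval 0.18 to 0.62, limma adjusted p = 0.0364), a 1.32-fold increase. It was lost, with adjusted p between 0.0642 and 0.169, when any one array of the miR-629-3p, miR-210-3p or NC group was left out. The difference from NC was 0.11 (95% interval -0.11 to 0.33) for miR-210-3p and 0.03 (-0.19 to 0.25) for miR-874-3p.

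TGFB1, the prototype ligand of the family, was not called in any of the 6 comparisons. Its level was 1.102 and 1.218 under miR-629-3p, 1.43 and 1.28 under miR-210-3p, 1.38 and 1.38 under miR-874-3p, and 1.22 and 1.06 under NC. The miR-629-3p arrays overlapped with NC, and those of the other 2 mimics lay above both. The differences from NC were 0.02 (95% interval -0.21 to 0.26), 0.22 (-0.02 to 0.45) and 0.24 (0.01 to 0.48), with limma adjusted p of 0.901, 0.225 and 0.296. The largest upper limit, 0.48, corresponds to less than a 2-fold change. The TGFB1 probe printed above is the member probe with the 6-base complement of the miR-629-3p seed.

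INHBA encodes the subunit of activin A, a ligand that signals through SMAD2 and SMAD3 from its own receptors. The level was 2.78 and 2.86 under miR-629-3p, 3.54 and 3.58 under miR-210-3p, 3.85 and 2.86 under miR-874-3p, and 3.52 and 3.996 under NC. The miR-629-3p arrays were low, but the second miR-874-3p array was as low, and the 2 miR-874-3p arrays differed by about as much as the groups did. The probe is printed at 10 spots per array, and on the second miR-874-3p array the 10 signals ran from 502.5 to 577.9 (coefficient of variation 4.07%), against 1062 to 1185 on the first (3.54%), so the gap lay between the arrays and not between spots. The difference of miR-629-3p from NC was -0.94 (SE 0.33, 95% interval -1.76 to -0.11) and was not called (limma adjusted p = 0.112). Leaving out either miR-874-3p array brought it past the threshold (adjusted p = 0.0265 and 0.0280), as did a variance trend with intensity (0.0478).

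The receptor TGFBR1, the type I kinase also known as ALK5, had the widest range of group means among the members that were above background on all 8 arrays. Its probe (chr9:101916322-101916381, plus strand) gave -2.51 and -2.29 under miR-629-3p, -0.78 and -0.87 under miR-210-3p, -1.75 and -1.26 under miR-874-3p, and -2.02 and -2.07 under NC. The groups did not overlap, and their order was miR-210-3p, miR-874-3p, NC and miR-629-3p. Neighbours in this order were not called apart: miR-210-3p exceeded miR-874-3p by 0.67 (limma adjusted p = 0.0689), miR-874-3p exceeded NC by 0.54 (0.221), and miR-629-3p differed from NC by -0.35 (0.216).

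With miR-210-3p, TGFBR1 was 1.22 above NC (SE 0.17, 95% interval 0.79 to 1.65, limma adjusted p = 0.0238), a 2.32-fold increase. This call was lost when any one array of the miR-629-3p, miR-210-3p or NC group was left out (adjusted p between 0.0621 and 0.0969), with the difference between 1.17 and 1.26. The signal is dim, and after normexp background correction with an offset of 50 the difference was 0.43 (adjusted p = 0.0145). Within the first slide row, the miR-629-3p arrays were below the miR-210-3p arrays by a log2 difference of -1.57 (SE 0.17, 95% interval -2.0 to -1.14, adjusted p = 0.00556), 2.97-fold in favour of miR-210-3p. This difference passed the threshold in all 8 fits that left out 1 array, and measured -0.55 after normexp.

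TGFBR2, the type II kinase that binds the ligand first, rose with miR-629-3p. Its brighter probe (chr3:30735163-30735222, plus strand) gave 4.84 and 4.89 under miR-629-3p, 4.46 and 4.35 under miR-210-3p, 4.55 and 4.35 under miR-874-3p, and 4.13 and 4.24 under NC. Both miR-629-3p arrays were above the other 6, both NC arrays were below them, and miR-210-3p and miR-874-3p overlapped. The difference of miR-629-3p from NC was 0.68 (SE 0.10, 95% interval 0.43 to 0.92, limma adjusted p = 0.0133), a 1.60-fold increase, and it was lost without either miR-629-3p array (adjusted p = 0.0659 and 0.0743).

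The second TGFBR2 probe (chr3:30703057-30703116, plus strand) is assigned by the array annotation to a predicted transcript. It gave -0.63 and -0.74 under miR-629-3p, -0.86 and -0.77 under miR-210-3p, -0.94 and -0.99 under miR-874-3p, and -1.20 and -1.79 under NC. Here too NC was lowest and miR-629-3p highest. Over the 27303 probes kept, miR-629-3p was 0.81 above NC (SE 0.19, limma adjusted p = 0.0447). The probes differed over miR-210-3p: within the first slide row the brighter probe was 0.46 higher with miR-629-3p than with miR-210-3p (adjusted p = 0.0262 over genes), and the second by 0.13 (0.688 over probes). The call on the brighter probe was lost without any one array of the miR-629-3p or miR-210-3p group (0.0877 to 0.134) and when the probes were averaged (0.29, adjusted p = 0.0976).

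TGFBR3, or betaglycan, is a co-receptor that presents TGFB2 to the signalling receptors. It was well above background on both miR-629-3p arrays and on no other, and it passed the filter through that group alone, so that it had to differ. Its probe (chr1:92148888-92148947, minus strand) gave -2.86 and -2.75 under miR-629-3p, -3.61 and -4.07 under miR-210-3p, -5.22 and -3.95 under miR-874-3p, and -3.65 and -4.83 under NC. The values of the other 3 groups are those of a signal that was not well above background. The dimmest detected signal differed between arrays, at -3.74 and -3.59 for miR-629-3p, -3.39 and -3.42 for miR-210-3p, -3.21 and -2.85 for miR-874-3p, and -2.84 and -2.82 for NC. The -3.65 of the first NC array, not detected there, lay above the dimmest detected signal of the first miR-629-3p array. Against the higher of 2 signals, the probe's own and the dimmest that was detected on the array, miR-629-3p was at least 1.02-fold higher than NC, at least 1.51-fold higher than miR-210-3p and at least 1.17-fold higher than miR-874-3p. The fitted differences were not called (limma adjusted p = 0.125, 0.223 and 0.0784).

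**Figure D2:**
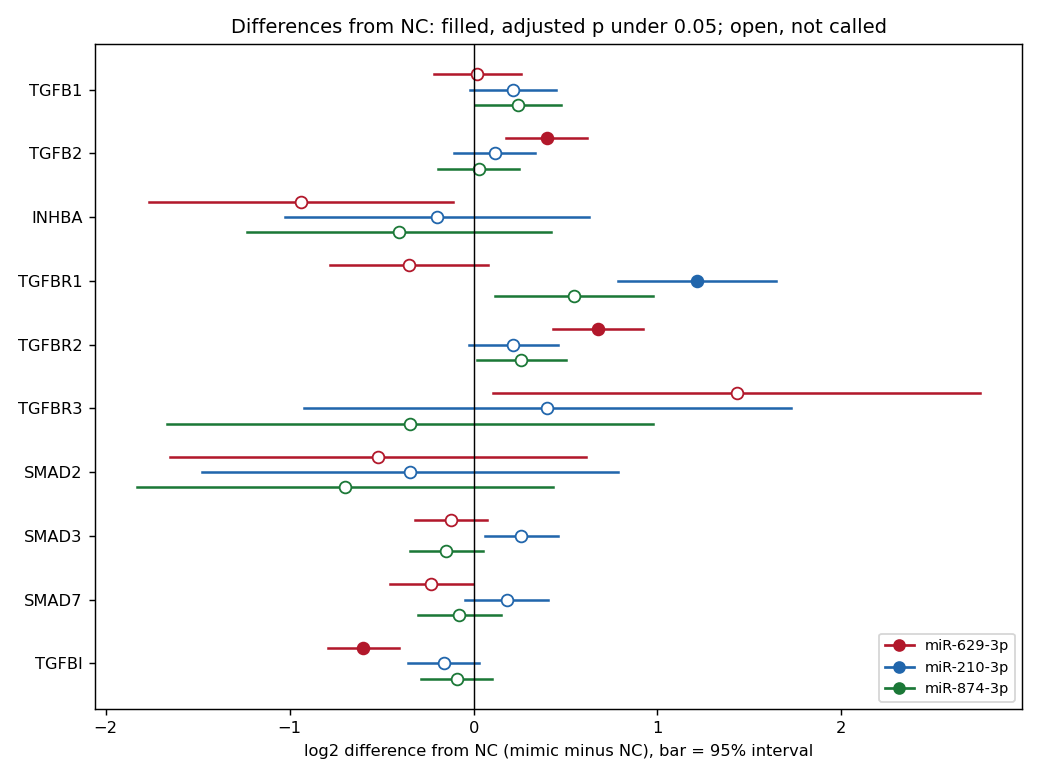
Log2 difference of each mimic from NC for the 10 members (mimic minus NC, x axis). Points are limma estimates from 2 arrays against 2, bars are 95% intervals, and filled points passed an adjusted p of 0.05: TGFB2 at 0.40, TGFBR2 at 0.68 and TGFBI at -0.60 with miR-629-3p, and TGFBR1 at 1.22 with miR-210-3p. The bars of SMAD2 and TGFBR3 are the widest, and the TGFBR3 points are fitted values of a probe that was above background with miR-629-3p alone.

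SMAD3, a receptor-activated SMAD that binds DNA directly, was highest with miR-210-3p. Its probe (chr15:67487391-67487450, plus strand) gave 3.87 and 3.79 under miR-629-3p, 4.22 and 4.20 under miR-210-3p, 3.73 and 3.87 under miR-874-3p, and 3.98 and 3.92 under NC. The 2 miR-210-3p arrays lay above the other 6, and miR-629-3p and miR-874-3p overlapped. No mimic was called against NC, with differences of -0.12, 0.26 and -0.15 (limma adjusted p = 0.330, 0.114 and 0.416). miR-210-3p was called 0.41 above miR-874-3p (SE 0.08, adjusted p = 0.0366), and miR-629-3p differed from miR-210-3p by -0.38 (SE 0.08, adjusted p = 0.0246). The first of these calls held without the second miR-874-3p array and was lost without any other (adjusted p between 0.0563 and 0.162), and the second was lost without any one of the miR-629-3p or miR-210-3p arrays (0.0906 to 0.129).

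SMAD7, the inhibitory SMAD, was highest with miR-210-3p and lowest with miR-629-3p. Its probe (chr18:46446782-46446841, minus strand) gave 0.67 and 0.69 under miR-629-3p, 1.074 and 1.103 under miR-210-3p, 0.91 and 0.75 under miR-874-3p, and 0.83 and 0.99 under NC. The miR-874-3p and NC arrays overlapped and lay between the other groups. The difference of miR-629-3p from miR-210-3p, both in the first slide row, was -0.41 (SE 0.09, 95% interval -0.63 to -0.18, limma adjusted p = 0.0294), lost without any one of those 4 arrays (adjusted p between 0.119 and 0.136). Against NC the differences were -0.23, 0.18 and -0.08, none of them called (adjusted p = 0.143, 0.278 and 0.719).

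SMAD2, the other receptor-activated SMAD, had 3 probes that did not give 1 answer. The brightest (chr18:45360188-45360247, minus strand) gave -0.55 and -0.59 under miR-629-3p, -0.37 and -0.42 under miR-210-3p, -0.48 and -1.01 under miR-874-3p, and 0.67 and -0.76 under NC. The 2 NC arrays differed by more than any groups did, and every mimic array lay between them except the second of miR-874-3p. The differences from NC were -0.52, -0.35 and -0.70, with SE 0.46 and limma adjusted p of 0.470, 0.678 and 0.497. Without the second NC array the miR-629-3p difference was -1.23 (adjusted p = 0.0488).

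The second SMAD2 probe (chr18:45348228-45348287, minus strand) gave -0.92 and -0.86 under miR-629-3p, -1.33 and -1.07 under miR-210-3p, -1.06 and -0.91 under miR-874-3p, and -1.40 and -1.49 under NC. On this probe both NC arrays were below the other 6, and miR-629-3p was 0.55 above NC (SE 0.12, limma adjusted p = 0.0332 over probes), opposite in sign to the brightest probe. The third probe (chr18:45347319-45347378, minus strand) was above background on no array. No direction for SMAD2 is therefore given.

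**Figure D3:**
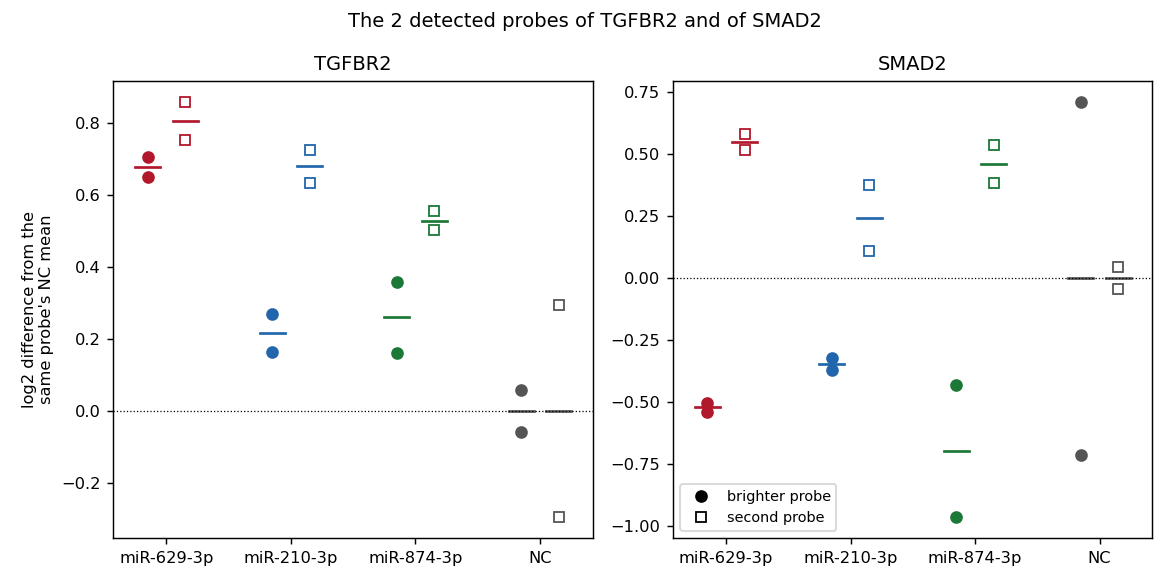
Log2 difference of each array from the NC mean of the same probe (y axis) for the brighter (filled circles) and second (open squares) detected probe of TGFBR2 and SMAD2, by group (x axis), with lines at group means. Both TGFBR2 probes were highest with miR-629-3p, at 0.68 and 0.81, whereas the SMAD2 probes differed in sign, at -0.52 and 0.55.

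TGFBI encodes a secreted matrix protein that TGF-beta induces, and it fell with miR-629-3p. Its probe (chr5:135399343-135399402, plus strand) gave 8.45 and 8.44 under miR-629-3p, 8.89 and 8.88 under miR-210-3p, 8.95 and 8.96 under miR-874-3p, and 8.97 and 9.13 under NC. Both miR-629-3p arrays lay below the other 6, and the order upwards was miR-629-3p, then miR-210-3p, then miR-874-3p and NC. Against NC, TGFBI with miR-629-3p fell by 0.60 on the log2 scale (SE 0.08, 95% interval -0.79 to -0.41, limma adjusted p = 0.0106), which made NC 1.52-fold higher. Without either miR-629-3p array the adjusted p was 0.0595 and 0.0617. Against miR-210-3p in the same slide row the difference was -0.44 (SE 0.08, adjusted p = 0.0162), and against miR-874-3p it was -0.51 (SE 0.08, adjusted p = 0.0144). These were lost without either miR-629-3p array (0.0746 to 0.0907), and the first also without either miR-210-3p array (0.0890 and 0.0862). The upper 3 groups were not called apart: miR-210-3p differed from NC by -0.16 (95% interval -0.35 to 0.03), and miR-874-3p by -0.09 (-0.29 to 0.10).

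Set against each other, the mimics were compared in 3 pairs at the same dose and time, with p-values adjusted over all genes of a pair. miR-629-3p and miR-210-3p differed in 5 of 10 members, TGFBR1, TGFBR2, SMAD3, SMAD7 and TGFBI, beside 22.6% of all genes. TGFBR2 was higher with miR-629-3p, and the other 4 were higher with miR-210-3p. TGFB2 was 0.28 higher with miR-629-3p in this pair and was not called (95% interval 0.06 to 0.50, limma adjusted p = 0.0721).

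miR-629-3p and miR-874-3p differed in 4 members, beside 16.2% of all genes. TGFB2 was 0.37 higher (SE 0.09, limma adjusted p = 0.0444) and TGFBR2 0.42 higher (SE 0.10, 0.0421) with miR-629-3p, whereas TGFBR1 differed by -0.90 (SE 0.17, 0.0252) and TGFBI by -0.51. The TGFBR2 value is that of its brighter probe. The second TGFBR2 probe was 0.28 higher with miR-629-3p and was not called (limma adjusted p = 0.377 over probes). Leaving out any 1 of the 8 arrays ended the TGFB2 call (adjusted p between 0.0596 and 0.193). That of TGFBR2 held only without the first miR-874-3p array (otherwise 0.0678 to 0.183), and that of TGFBR1 was lost without any one array outside the miR-874-3p group (0.0527 to 0.122). miR-210-3p and miR-874-3p differed in 1 member, SMAD3, beside 9.8% of all genes. For TGFB1, TGFB2, TGFBR2 and TGFBI, the 95% intervals of the difference between miR-210-3p and miR-874-3p lay within -0.29 and 0.31.

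The rest of the pathway was followed in a list of 63 further genes, of which 53 were tested. With miR-629-3p, 11 of 53 were called (20.8%, beside the 16.8% of all genes), 9 higher and 2 lower, with a median difference of 0.08 against 0.02 over all genes. ITGB8, the integrin subunit that releases TGF-beta from its latent complex, had the largest difference of the 11. Its level was 3.23 and 3.16 under miR-629-3p, 0.23 and 0.13 under miR-210-3p, 1.22 and 2.30 under miR-874-3p, and 1.18 and 0.55 under NC. The 2 miR-629-3p arrays were above the other 6, both miR-874-3p arrays were above both NC arrays, and the 2 miR-210-3p arrays were lowest. It was 2.33 above NC (SE 0.38, limma adjusted p = 0.0168), a 5.03-fold increase, and the call was lost without either miR-629-3p array or the second NC array (0.0668 to 0.0871).

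BAMBI, a pseudoreceptor that dampens the pathway, was 1.30 higher with miR-629-3p than with NC (SE 0.24, adjusted p = 0.0212), from a dim signal that was above background on 1 of the 2 NC arrays. This call was lost without either miR-629-3p array or the second NC array (0.0770 to 0.106). BMP2, a bone morphogenetic protein that signals through SMAD1 and SMAD5, differed by -1.08 (SE 0.10, adjusted p = 0.00573). The other called genes were named after their values were seen. BMP4 (1.18), GDF15 (0.88), TGIF1 (0.71), FST (0.49), ACVR1 (0.47) and SMAD1 (0.44) were higher, and FSTL3 (-0.99) was lower. For TGIF1 and ACVR1 this holds for the brighter probe alone. The second TGIF1 probe gave -0.76 and -0.53 with miR-629-3p, against -0.75 and -0.63 with NC. The second ACVR1 probe gave -2.36 and -2.10 with miR-629-3p, against -2.69 (not above background) and 0.69 with NC.

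CTGF, a matricellular target of SMAD3 and of other pathways, was called with both miR-629-3p and miR-210-3p. Its level was -0.25 and -0.18 under miR-629-3p, -0.41 and -0.31 under miR-210-3p, -0.81 and -1.07 under miR-874-3p, and -1.34 and -1.53 under NC. The groups did not overlap, and NC was lowest. The differences from NC were 1.22 (SE 0.12, adjusted p = 0.00574) with miR-629-3p and 1.07 (SE 0.12, 0.0134) with miR-210-3p. The second call was lost without either miR-629-3p array (0.0509 and 0.0555) or the second miR-210-3p array (0.0604).

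With miR-210-3p, 4 of 53 were called, beside 6.05% of all genes, 2 of them higher. Besides CTGF, ACVR2B, a type II receptor for activins, was higher: it gave 1.60 and 1.60 under miR-210-3p, against 0.38 and 0.36 under NC, 0.58 and 0.50 under miR-629-3p, and 0.42 and 0.31 under miR-874-3p. Both miR-210-3p arrays stood above all others, by 1.22 from NC (SE 0.07, limma adjusted p = 0.00573). FST, or follistatin, an activin antagonist, differed by -0.40 (adjusted p = 0.0393), opposite in sign to its difference with miR-629-3p, and ID1, a target of bone morphogenetic protein signalling, by -0.84 (0.0408). COL1A1 was not well above background on the NC arrays and was not called with miR-210-3p (limma adjusted p = 0.0606). Its 2 miR-210-3p arrays gave -1.63 and 0.53. Their mean was at least 4.87-fold above NC, a bound that holds for this mean and not for each array. With miR-874-3p, 0 of 53 genes were called by limma, and 11 had an unadjusted p under 0.05, beside 16.4% of all genes (4 by the methods' t-test, beside 9%).

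**Figure D4:**
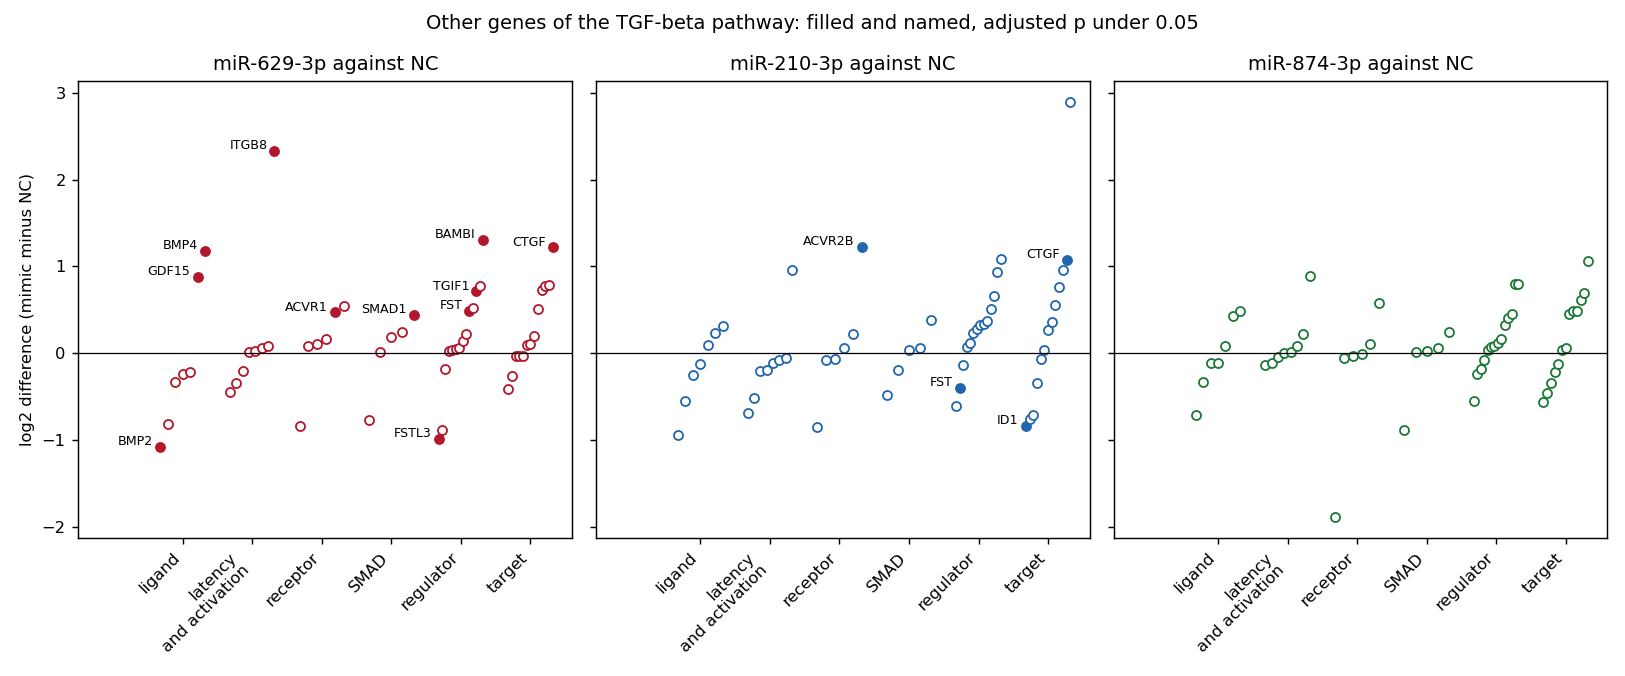
Log2 difference from NC (y axis) of the 53 tested pathway genes outside the 10 members, by role (x axis), in 1 panel per mimic. Each point is a gene, and filled, named points passed an adjusted p of 0.05: 11 with miR-629-3p, led by ITGB8 at 2.33, 4 for miR-210-3p, and 0 for miR-874-3p.

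By role, the 11 calls with miR-629-3p fell on 3 of 7 further ligands, 1 of 8 latency and activation genes, 1 of 6 receptors, 1 of 5 SMADs, 4 of 14 regulators and 1 of 13 targets. Of all genes, 16.8% were called in this comparison. The 13 targets, which include CDKN1A and JUNB, held 1 call for miR-629-3p (7.69%, beside 16.8% of all genes). For miR-210-3p the targets held 2 calls (15.4%, beside 6.05% of all genes). With miR-629-3p, CDKN1A was 0.79 above NC (limma adjusted p = 0.0509) and JUNB differed by -0.26 (0.151), so neither was called. TGFBI, the induced matrix gene among the 10 members, fell with miR-629-3p while CTGF rose. SMAD7, the induced inhibitor among the members, differed from NC by -0.23 with miR-629-3p and was not called (limma adjusted p = 0.143).

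TGFBR1 had the widest range of group means (1.57) among the members above background on all 8 arrays, and was taken after its values were seen. TGFBR3, whose values spread further, was above background in 1 group alone, so that its range was not ranked. The tested genes outside the lists with the pattern most similar to TGFBR1 over the 8 arrays were KAL1 (Pearson r = 0.989), CASP8AP2 (0.989) and TRIP11 (0.979). The levels of these 3 genes were, as for TGFBR1, highest with miR-210-3p and lowest with miR-629-3p, at -0.67 and -0.67 against -1.41 and -1.42 for KAL1. Each r is a description over 8 arrays in 4 groups, chosen as the highest of 21283 genes.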

How the data were processed

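Gene expression was measured with 1-colour Agilent arrays (Cy3, 100 ng of RNA) in 8 samples. The authors deposited the scanner output of each array, made with Agilent Feature Extraction 11.5.1.1 according to the submitters' processing notes, whose processed signal is a background-corrected intensity per spot. A table of log2 values was also deposited by the authors. Each of its columns equalled the log2 processed signal after subtraction of about the 75th percentile (array-wise offsets between -0.049 and 0.004), and it was used as an alternative.

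Here, log2 processed signals were reduced by the 75th percentile of each array over all probes, spots flagged as outliers were dropped, and the mean over its spots was taken for each probe. The filter required that some group had both of its arrays well above background, and a gene was read from its brightest kept probe. Groups were compared in R 4.3.3 with limma 3.58.1 (lmFit and eBayes on all 8 arrays, Benjamini-Hochberg adjustment over 21283 genes, threshold 0.05). Data were generated for miR-629-3p against NC on 21283 genes, with known 2-fold changes in 101 genes and 4-fold changes in 99. Of these, 48.5% of 2-fold and 78.8% of 4-fold changes were recovered, with 5 false calls. The measured comparison called 3565 genes, many more than were changed there, so these rates need not hold for it. The number of arrays limits this precision.

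The members and the gene lists were chosen with earlier results of these data known. Named by rule were all members and pathway genes called with at least a 2-fold change (at most 3 per direction and mimic). Other pathway genes given with values, such as FST, ID1 and COL1A1 for miR-210-3p, fell outside this rule. Also named were the genes most similar to the member with the widest range. That member was TGFBR3, replaced by TGFBR1 because TGFBR3 was detected in 1 group only. Replicate numbers were not taken as pairs: the 6 correlations of replicate differences between groups lay between -0.106 and 0.034. Groups of 2 arrays were not examined for outlying samples. No genome was at hand, so exon and UTR positions of the other probes are not given.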

Additional observations from a re-analysis of the deposited data

How the results depend on the processing

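Of 60 member differences, 14 were called, and all 14 kept their direction under the 13 other settings; of the rest, 8 changed direction under at least 1 setting without a call, and 6 were called under at least 1. Only the TGFBR1 difference between miR-629-3p and miR-210-3p was called in every fit without 1 array, where a group of 1 is assumed to vary like the others. Counts of called members and pathway genes that moved follow, each beside its share of all genes called, which moved too; causes were not tested, beyond the fewer arrays of a fit. The replicate block gave 2 members by F test (beside 12.2%), 2 for miR-629-3p against miR-210-3p (14.8%), 2 for miR-629-3p against miR-874-3p (9.54%) and 0 for miR-210-3p against miR-874-3p (3.7%), and 2 pathway genes for miR-210-3p (2.31%). The methods' t-test after adjustment gave 0 for miR-629-3p (0%) and 0 for miR-210-3p (0.0047%) against NC, in members and pathway genes alike, 2 for miR-629-3p against miR-210-3p (5.91%), 0 for miR-629-3p against miR-874-3p (0%) and 0 for miR-210-3p against miR-874-3p (0.0141%). Its unadjusted p under 0.05 counted 2, 2 and 0 members in the order of comparisons against NC, beside 27.2%, 22.4% and 9%. An unadjusted limma p under 0.05 with a 2-fold change gave 1 member for miR-629-3p against NC (5.26%) and 1 against miR-874-3p (5.14%). Both were TGFBR3, detected with miR-629-3p alone and so without a measured 2-fold change. That threshold gave 1 for miR-629-3p against miR-210-3p (TGFBR1, 5.61%) and 0 for miR-210-3p against miR-874-3p (3.76%). Without the detection filter, members numbered 0 for miR-210-3p against NC (0.108%), 1 for miR-629-3p against miR-210-3p (3.59%), 2 for miR-629-3p against miR-874-3p (20.2%) and 0 for miR-210-3p against miR-874-3p (0.645%), with 1 pathway gene for miR-210-3p. Fits of only the 2 groups gave 0 members for miR-629-3p (1.26%) and 0 for miR-210-3p (0.0705%) against miR-874-3p, and 1 pathway gene for miR-210-3p (0.827%). Quantile normalization gave 0 members for miR-210-3p against miR-874-3p (9.09%), and detection on all 8 arrays 2 (15.5%), with 1 pathway gene for miR-874-3p (0.563%). Normexp gave 2 members and 7 pathway genes for miR-210-3p (11.3%) and 2 pathway genes for miR-874-3p (1.56%), and the intensity trend 2 and 9 (11.8%) and 2 (2.33%).

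Without 1 array, the members called numbered 0 to 5 by F test (beside 5.21% to 31.3% of all genes), 0 to 4 for miR-629-3p (4.73% to 21.8%), 0 to 1 for miR-210-3p (0.683% to 11.49%) and 0 to 1 for miR-874-3p (0.0969% to 4.92%) against NC, 1 to 6 for miR-629-3p against miR-210-3p (6.7% to 26.5%), 0 to 4 against miR-874-3p (5% to 21.9%), and 0 to 2 for miR-210-3p against miR-874-3p (2.11% to 15.6%). The pathway genes numbered 4 to 14, 1 to 6 and 0 to 4 against NC. The 1 member called for miR-874-3p, without its first array, was TGFBR1 (0.79, adjusted p = 0.0477). Signal over background limits TGFBR3 most among the members, since it was above background on 2 of 8 arrays.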
